A study of Homo sapiens with 16 samples.

Results

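PTPRN2, LBX1-AS1 and FZD10 were chosen by their counts, which lay near 0 in the second knockout and in no other group. They are 3 of the 33121 entries of the count table, and each symbol has its own entry. RNA was measured in HAP1, a near-haploid human cell line that descends from a leukaemia line but grows attached, in 4 groups of 4 libraries. The groups were cells with a deletion of SLC30A10, which encodes a manganese exporter, the SLC30A10+/+ control cells of that experiment, the second knockout, which lacks another gene, and the control cells of that other experiment, in which this gene is intact (the second control). In the labels both sets of controls have a single cell line identifier, each deletion has its own, and there is no mention of a treatment and no number of independent clones. They do not say that the libraries came from separate cultures, so the p-values measure the spread between these libraries, which may be technical.

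FZD10 encodes a Frizzled receptor, a membrane protein that binds secreted Wnt ligands together with a co-receptor of the LRP family and passes the signal through Dishevelled to beta-catenin and the TCF/LEF factors. PTPRN2, also called phogrin or IA-2beta, is a receptor-type tyrosine phosphatase of dense-core vesicles, the stores from which neuroendocrine cells release hormones and peptides, and it is known as an autoantigen of type 1 diabetes. LBX1-AS1 is a long non-coding RNA that starts next to LBX1 on the opposite strand. LBX1 is a homeobox factor of migrating muscle precursors and of dorsal spinal cord neurons.

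Library totals lay between 16058856 and 16648151, and 3 counts were worth 0.180 to 0.187 counts per 1000000 (CPM). The SLC30A10 transcript had 6 to 9 counts in its control and 3 to 11 in its knockout, so its level does not check the labels. Of 8 blood lineage markers (among them PTPRC, CD34 and MPO) none passed the expression filter, and their summed level was 0.0605 to 0.187 CPM in the second knockout and 0.0607 to 0.183 CPM in its control. In each of these groups 4 of the 8 were at 0. The list does not cover all blood cell genes. TAL1 and IRF8, named below for profiles like those of the chosen genes, were expressed in the second control and lower in the second knockout. The 5 attached cell markers summed to 684 to 855 CPM in the second knockout and 569 to 729 CPM in its control. Of these 5, 2 rose and 2 fell in the second knockout, where 6.67% of all tested genes rose and 7.03% fell. The keratin genes KRT8 and KRT18 fell by 1.35 ± 0.13 and 0.22 ± 0.06 (log2, SE; adjusted p 9.91e-09 and 0.0115 by edgeR), and the cytoskeletal gene VIM and the cadherin gene CDH2 rose by 0.26 ± 0.07 and 0.22 ± 0.05 (adjusted p 0.0118 and 0.00438). The part of cell composition in the results was not tested.

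PTPRN2 lies on chromosome 7 from 157539056 to 158587823, on the minus strand (RefSeq, GRCh38.p14), and spans 1048768 bases. In the second knockout its 4 libraries held 2, 2, 0 and 1 counts. The libraries of the second control held 172, 189, 172 and 173 counts, the SLC30A10 control 144, 172, 173 and 177, and the SLC30A10 knockout 201, 207, 204 and 202. The gene was thus nearly silent in 1 group and expressed in every library of the other 3. The mean was 0.0769 ± 0.0593 CPM (SD, n = 4) in the second knockout and 10.7 ± 0.4996 CPM in its control, a ratio of 140 (95% exact interval 59.8 to 433, covering counting error only). These values chose the gene, so no test of them is reported, and the interval does not allow for that choice. The ratio rests on 5 counts and uses no floor, so it cannot be ranked against the bounds given below for LBX1-AS1 and FZD10. In the SLC30A10 knockout, which the choice used only in asking that the counts not lie near 0, PTPRN2 rose from 10.1 ± 0.922 to 12.6 ± 0.173 CPM (SD, n = 4), where 41.4% of all 15569 tested genes were called in either direction. On the log2 scale the rise was 0.32 ± 0.09 (SE; adjusted p 0.00505 by edgeR's quasi-likelihood test, Benjamini-Hochberg over all tested genes). The control sets gave a log2 difference of -0.08 ± 0.09 (adjusted p 0.508 by edgeR), and their libraries overlapped.

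LBX1-AS1 lies on chromosome 10 from 101229594 to 101238859, on the plus strand. No read was counted for it in any library of the second knockout. The second control held 121, 134, 141 and 138 counts, the SLC30A10 control 84, 106, 88 and 118, and the SLC30A10 knockout 137, 138, 139 and 138. The second control averaged 8.09 ± 0.491 CPM (SD, n = 4). Against a floor of 3 counts in each library, this is a fall by a factor of at least 44.1. The SLC30A10 knockout lay above its control, with 8.54 ± 0.0388 against 6.02 ± 0.964 CPM (SD, n = 4) and no overlap of the libraries. The rise was 0.50 ± 0.11 (log2, SE), with an adjusted p of 0.00062 by edgeR. The SLC30A10 control was itself lower than the second control, by a log2 difference of -0.43 ± 0.11 with an adjusted p of 0.00342 by edgeR. Both comparisons share the SLC30A10 control. Against both control sets pooled, the log2 fold change in the SLC30A10 knockout was 0.29, with an adjusted p of 0.0127 by edgeR.

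FZD10 lies on chromosome 12 from 130162464 to 130165740, on the plus strand. It also had no count in the second knockout. The second control held 65, 54, 70 and 57 counts and the SLC30A10 control 56, 63, 54 and 68, and both control sets overlapped throughout. In the SLC30A10 knockout FZD10 had 198, 215, 235 and 259 counts, above every control library. The second control averaged 3.73 ± 0.439 CPM (SD, n = 4), and by the same floor FZD10 fell by a factor of at least 20.3. It rose 3.83-fold in the SLC30A10 knockout, from 3.67 ± 0.391 to 14.04 ± 1.63 CPM (SD, n = 4), or by 1.94 ± 0.12 on the log2 scale (SE; adjusted p 2.46e-12 by edgeR). Between the control sets the log2 difference was -0.03 ± 0.14, with an adjusted p of 0.904 by edgeR.

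**Figure D1:**
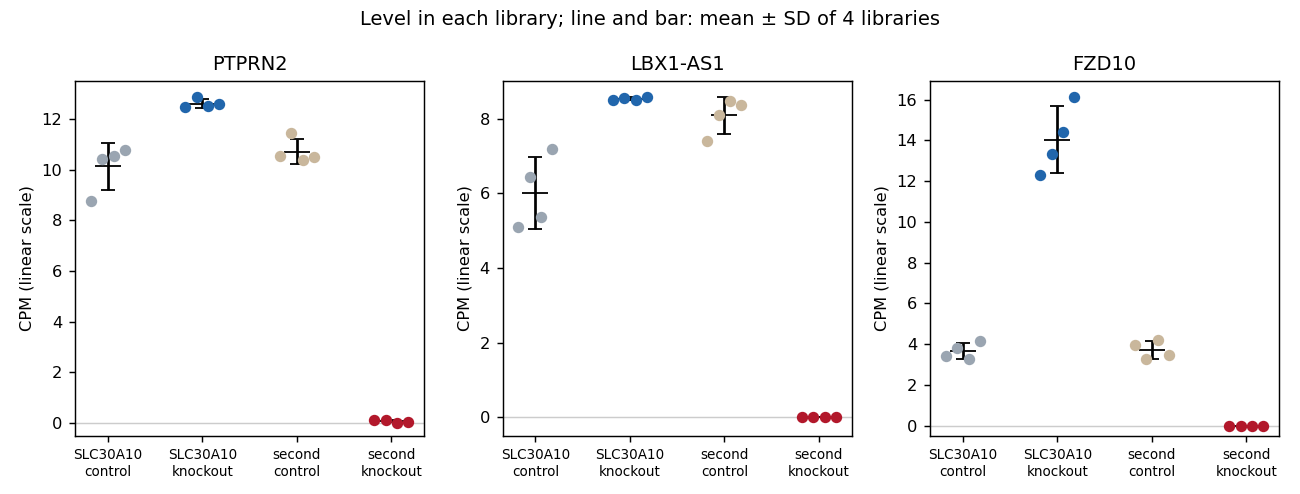
Level of PTPRN2, LBX1-AS1 and FZD10 in CPM on linear axes, with a point for each library and the mean ± SD of the 4 libraries of each group. All libraries of the second knockout lie at or near 0, and the SLC30A10 knockout has the highest mean for each gene.

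The 3 genes therefore differed in size but not in direction in the SLC30A10 knockout, where all 3 rose. The background for this count is high, since 21.2% of all tested genes rose in that comparison and 20.2% fell. Libraries of the SLC30A10 knockout and its control did not overlap for any of the 3, against 38.3% of all tested genes. Between the control sets 1 of the 3 was called, where 39.3% of all tested genes were, and its libraries did not overlap, against 36.3% of all tested genes. Per kilobase of annotated exon (GENCODE 29), the mean levels in the second control were 2.35 ± 0.142 CPM for LBX1-AS1, 2.21 ± 0.103 CPM for PTPRN2 and 1.14 ± 0.134 CPM for FZD10 (SD, n = 4). The first and the second of these lie within about 1 SD of each other. In the SLC30A10 knockout the order was FZD10 with 4.28 ± 0.496, PTPRN2 with 2.61 ± 0.0358 and LBX1-AS1 with 2.48 ± 0.0113 CPM per kilobase. The annotation used for counting is not given, and LBX1-AS1 ends at 101238859 in RefSeq and at 101270148 in GENCODE. The order of LBX1-AS1 and PTPRN2 may thus depend on the annotation, which the SDs do not cover.

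Annotated transcripts of PTPRN2 and FZD10 share no stretch of 100 bases, the read length, with another gene of GENCODE 29, on either strand. LBX1-AS1 shares 2.9% of such stretches, all with LBX1. These 2 genes are arranged head to head. Their starts lie 130 bases apart in RefSeq and overlap by 201 bases in GENCODE. FZD10-AS1 is likewise a long non-coding RNA on the minus strand, 785 bases from the start of FZD10 in RefSeq and 202 bases in GENCODE, where it is named FZD10-DT. The protocol in the labels names no step that marks strand, so reads from the overlap of LBX1 and LBX1-AS1 cannot be told apart.

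Both head-to-head partners were lost from the second knockout along with the genes themselves. FZD10-AS1 had no count in any of the 4 libraries, against 59, 74, 92 and 68 counts in the second control, and was lower by a factor of at least 24.2. LBX1 also had no count there, against 19, 18, 22 and 22 counts, and was lower by a factor of at least 6.70. Neither gene is among the 3 chosen, but both were listed as partners of genes picked for this loss. FZD10-AS1 also shows the pattern that picked them, and LBX1 overlaps LBX1-AS1 in GENCODE. Their adjusted p-values in the second knockout were 3.03e-13 for FZD10-AS1 and 2.24e-08 for LBX1 (edgeR quasi-likelihood, where 7.03% of tested genes fell). These values describe the loss and are no independent test of it. Only these partners had an entry, out of a list of 3 antisense or divergent partners.

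In the SLC30A10 knockout, set against its own control, FZD10 and FZD10-AS1 both rose, while of the other pair only LBX1-AS1 was called. The difference between the effects of both knockouts was called for 31.3% of all tested genes, and for FZD10-AS1 and LBX1 among them (adjusted p 2.78e-14 and 8.67e-07 by edgeR). For both genes that difference is mostly their loss from the second knockout. It therefore says little about the pairs in the SLC30A10 knockout. FZD10-AS1 rose with FZD10, with 185, 207, 193 and 183 counts against 87, 104, 80 and 77 in the control. Its rise was 1.17 ± 0.12 (log2, SE; adjusted p 1.76e-08 by edgeR), while LBX1 had 12, 16, 20 and 19 counts against 17, 21, 22 and 34. The log2 fold change of LBX1 was -0.46 ± 0.24, with an adjusted p of 0.132 by edgeR. The ratio of FZD10 to FZD10-AS1 counts was 0.702 ± 0.124 in the SLC30A10 control and 1.19 ± 0.172 in the SLC30A10 knockout (SD, n = 4), so FZD10 rose further than its partner. The ratio of LBX1 to LBX1-AS1 was 0.235 ± 0.0427 in that control and 0.121 ± 0.0255 in that knockout. Of 4 such comparisons of log2 ratios, both of these and the LBX1 ratio between the control sets had an exact permutation p of 0.0286 (two-sided), the smallest that 4 against 4 can give, and 0.0381 after Benjamini-Hochberg adjustment. The FZD10 ratio between the control sets had an exact permutation p of 0.171. In the second control the ratios were 0.858 ± 0.169 for FZD10 and 0.152 ± 0.0117 for LBX1 (SD, n = 4). Its LBX1 ratio thus lay nearer to that of the SLC30A10 knockout than to that of the SLC30A10 control. For FZD10, second control replicate 1, at 1.102, lay within the 1.039 to 1.415 of the SLC30A10 knockout.

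**Figure D2:**
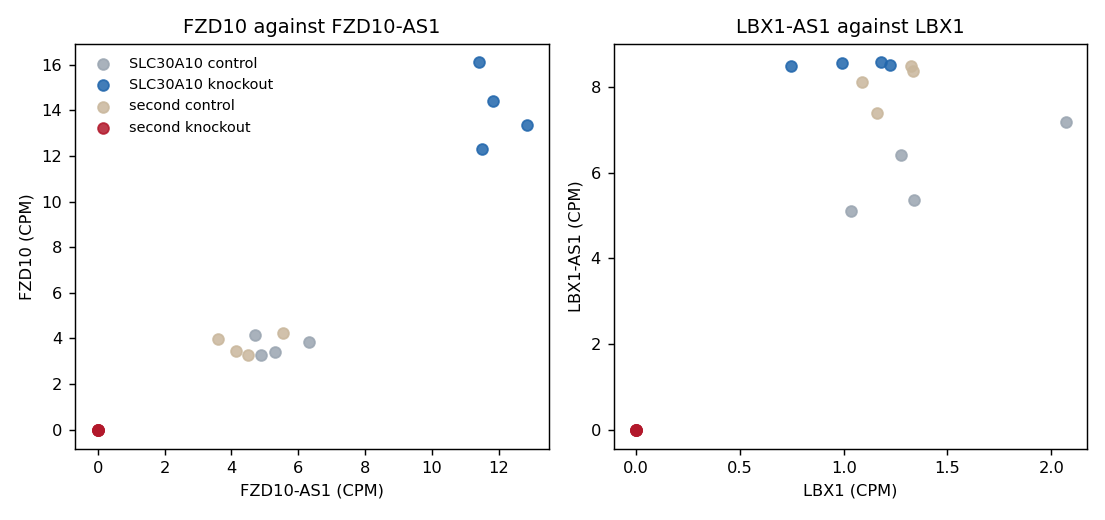
Each point is a library, with FZD10 against FZD10-AS1 on the left and LBX1-AS1 against LBX1 on the right, in CPM on linear axes. The 4 libraries of the second knockout fall on the origin in both plots, and the SLC30A10 knockout is separate from the controls along both axes on the left and not along the LBX1 axis on the right.

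The loss was then followed to the neighbouring genes. Of the 5 nearest entries on each side of each gene, 30 in all, 19 were tested and 6 were called in the second knockout, 3 higher and 3 lower, against 13.7% of all tested genes in either direction and 6.67% higher. Their median log2 fold change was 0.01, beside -0.00 over all tested genes. The 3 falls were those of LBX1, FZD10-AS1 and DNAJB6, the last a co-chaperone gene 121616 bases from PTPRN2, with a log2 fold change of -0.15 ± 0.04. This small change no longer passed without second control replicate 2 or 3, without second knockout replicate 2 or 4, or with only the 8 libraries compared.

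Beside PTPRN2, the condensin subunit gene NCAPG2 lies 43345 bases away and had a log2 fold change of 0.05 ± 0.04 (adjusted p 0.464 by edgeR), while ESYT2, which encodes a tether between the endoplasmic reticulum and the plasma membrane, rose by 0.22 ± 0.05. The ubiquitin ligase gene UBE3C had -0.02 ± 0.04 (adjusted p 0.821 by edgeR). MNX1, a homeobox gene of motor neurons and pancreas, rose by 0.27 ± 0.07. In the SLC30A10 knockout MNX1 rose by 0.32 ± 0.07 (adjusted p 0.000579 by edgeR), and ESYT2 was not called (0.10 ± 0.05, adjusted p 0.104 by edgeR). The microRNA genes MIR153-2 and MIR595, inside PTPRN2, had no count in any of the 16 libraries, which were made from poly-A RNA.

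Around LBX1-AS1, the homeobox gene TLX1 lies 91804 bases away and rose, with 500, 474, 453 and 463 counts in the second knockout against 372, 386, 365 and 355 in its control. Its log2 fold change was 0.37 ± 0.07, with an adjusted p of 0.000207 by edgeR. TLX1NB was too low to test. On the other side BTRC, which encodes the ubiquitin ligase subunit that recognises beta-catenin, had 0.00 ± 0.05 (adjusted p 0.995 by edgeR), and POLL, a DNA polymerase gene, had -0.06 ± 0.06 (adjusted p 0.575 by edgeR). LBX1 and LBX1-AS1 thus had no count in the second knockout, while the nearest tested genes on either side were still expressed.

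FZD10 has few expressed neighbours. TMEM132D, PIWIL1 and LOC101927786, the nearest after FZD10-AS1, had no count in any library. The nearest tested gene beyond these was RIMBP2, a presynaptic scaffold gene 230392 bases away, with 6 to 12 counts in the second knockout and 4 to 10 in its control and a log2 fold change of 0.33 ± 0.36 (adjusted p 0.623 by edgeR). RIMBP2 had 15 to 22 counts in the SLC30A10 knockout against 1 to 7 in that control, and it passed the expression filter only through that knockout, so its difference there is given as a description. STX2, a syntaxin gene, had 0.09 ± 0.04 in the second knockout and -0.08 ± 0.05 in the SLC30A10 knockout, with adjusted p-values of 0.204 and 0.156 by edgeR. Within 1 Mb of the 3 genes, 50 genes were tested and 10 were called in the second knockout, 6 higher and 4 lower, beside 6.67% of all tested genes higher and 7.03% lower. The largest rise among them was that of PAX2, a paired-box gene of kidney and eye development 400 kb from LBX1-AS1, by 1.5 ± 0.10 (adjusted p 6.57e-12 by edgeR). PAX2 also rose in the SLC30A10 knockout, by 0.61 ± 0.11 (adjusted p 8.13e-05 by edgeR), where 41.4% of all tested genes were called.

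**Figure D3:**
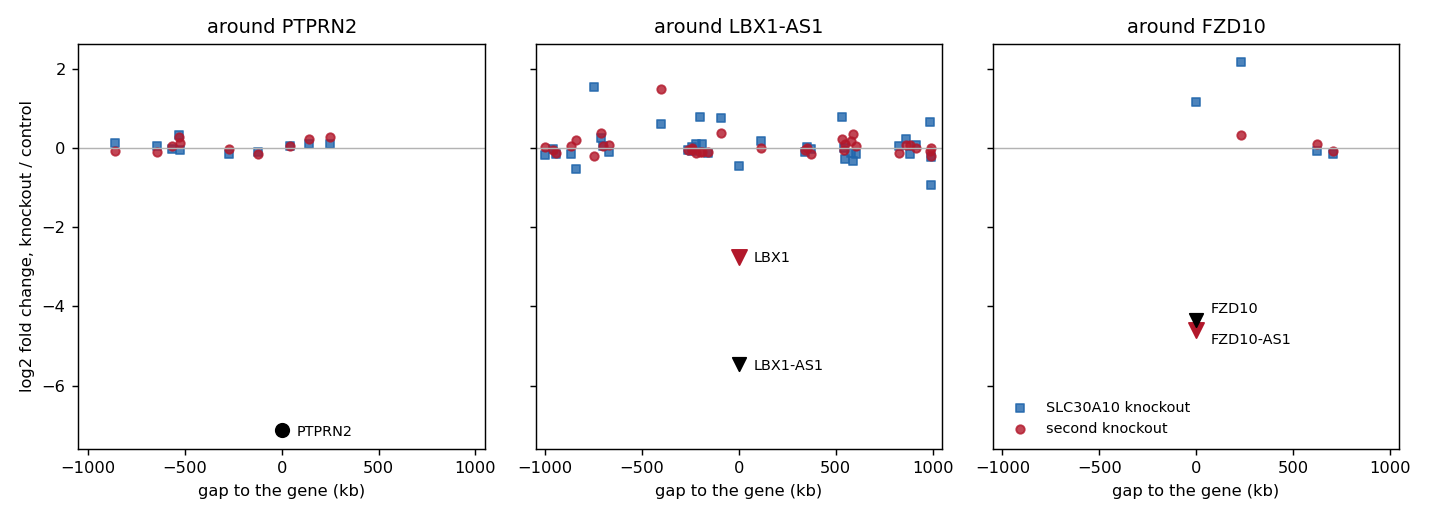
Log2 fold changes of tested genes within 1000 kb of PTPRN2, LBX1-AS1 and FZD10 (y axis) against their distance from that gene (x axis), in the SLC30A10 knockout (squares) and the second knockout (circles). Triangles are lower bounds on the fall for genes with no count in the second knockout, black symbols are PTPRN2, LBX1-AS1 and FZD10, and in the second knockout LBX1 and FZD10-AS1 lie far below the other neighbours, of which PAX2, at 1.5, is the highest.

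The pattern that picked the 3 genes was rare. Among 13086 entries with at least 20 counts in each of the other 12 libraries, 10 had at most 3 counts in every library of the second knockout (0.0764%). The same rule gave 5 entries for the SLC30A10 knockout and 0 for either control set. The 10 were PTPRN2, LBX1-AS1, FZD10, FZD10-AS1, S100A6, BMP3, IRF8, GPR27, GABRB2 and a numbered further copy of DOC2B. LBX1 missed the rule because some of the other libraries held fewer than 20 counts.

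The other genes of this set have varied known roles. S100A6, a calcium-binding protein, had 0 to 1 counts in the second knockout and 196 to 276 in its control, and IRF8, a transcription factor of blood cells, had 0 to 1 against 63 to 89. GPR27, an orphan receptor, was at 0 in every library of the second knockout against 58 to 77 counts, lower by a factor of at least 22.6. BMP3, a ligand of the bone morphogenetic protein family, had 0, 0, 0 and 2 counts against 67, 68, 62 and 67. GABRB2, a subunit of the GABA-A receptor, had 0 to 3 against 43 to 72, and the DOC2B copy had 0 to 2 against 29 to 51, with reads that the counting may have split between near-identical copies. BMP3 also resembled FZD10 in the SLC30A10 knockout, where it held 159, 186, 163 and 173 counts against 58, 57, 48 and 69 in the control and rose by 1.58 ± 0.12 (log2, SE), with an adjusted p of 5.35e-11 by edgeR. S100A6 had a log2 fold change of 0.02 ± 0.09 there, with an adjusted p of 0.865 by edgeR.

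Just outside the rule lay 10 genes with up to 4 to 9 counts in their highest second knockout library. COL24A1, a collagen gene, had 1 to 4 counts there and 62 to 112 in the other libraries, and ESRG had 1 to 5 against 76 to 137. NRCAM, a neuronal adhesion gene, had 0 to 5 against 38 to 87.

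**Figure D4:**
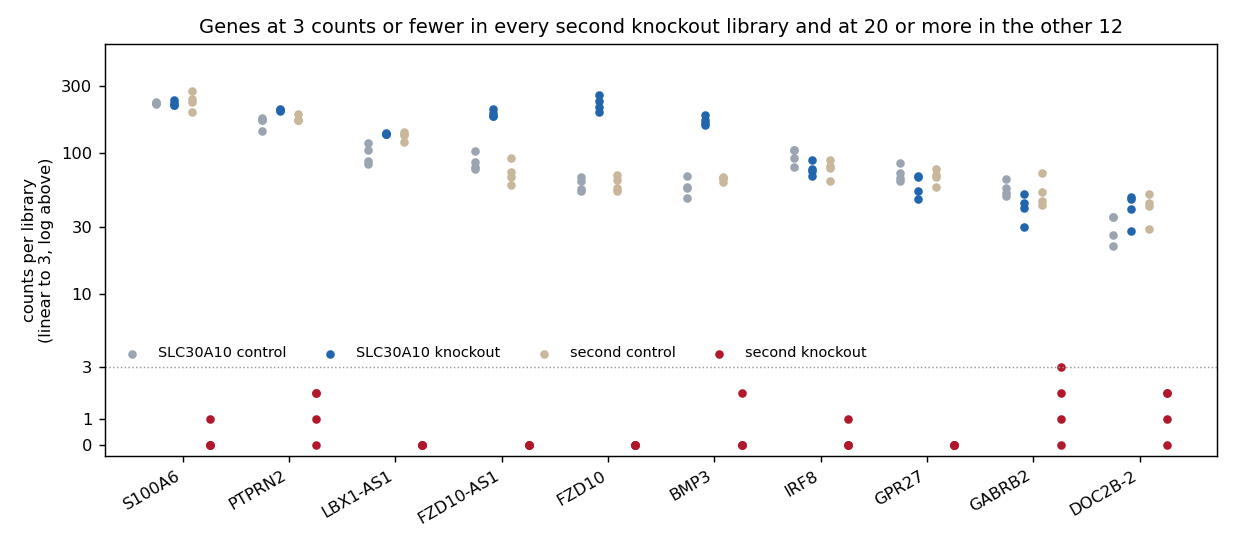
Counts per library (y axis, linear up to 3 and logarithmic above) of the 10 entries with at most 3 counts in every library of the second knockout and at least 20 in each of the other 12, ordered by level. The dotted line marks 3 counts, and FZD10, FZD10-AS1, BMP3 and PTPRN2 show the SLC30A10 knockout above both control sets.

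Genes whose profile over the 16 libraries was most like that of each of the 3 were ranked by Pearson's r of log2 CPM, as a description in which all 3 profiles share the same 4 libraries near 0. For PTPRN2 the highest were S100A6 (r = 0.996), LBX1-AS1 (0.995), IRF8 (0.993), IQGAP1 (0.992) and TAL1 (0.992). For LBX1-AS1 they were TAL1 (r = 0.998), FREM2 (0.997), PTPRN2 (0.995), S100A6 (0.995) and IQGAP1 (0.994). FZD10 was nearest to BMP3 (r = 0.993), PTPN3 (0.992), FZD10-AS1 (0.992), PCDH19 (0.989) and ZNF518B (0.988). Not all of these were lost. IQGAP1, a scaffold protein of the cell cortex, kept 484 to 524 counts in the second knockout against 4808 to 4910 in its control, and TAL1, a transcription factor of blood cell development, kept 200 to 234 against 1198 to 1360. PTPN3, a cytoplasmic tyrosine phosphatase, had 17 to 27 counts in the second knockout, 138 to 168 in its control, 151 to 180 in the SLC30A10 control and 389 to 444 in the SLC30A10 knockout, so that, as for FZD10, the second knockout was lowest and the SLC30A10 knockout highest.

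The rest of the Wnt pathway was examined around FZD10. All 9 other Frizzled receptors were tested, and in the second knockout FZD8 rose by 0.41 ± 0.11 while FZD5 fell by 0.34 ± 0.05 and FZD4 fell by 0.33 ± 0.09 (log2, SE), 3 called of 9, beside 13.7% of all tested genes. FZD5 had 644, 634, 663 and 646 counts against 800, 856, 788 and 849 in the control, without overlap. The call of FZD4 was lost without second knockout replicate 2, where the adjusted p by edgeR was 0.0563. FZD9 had 85, 81, 85 and 87 counts against 60, 65, 69 and 74, with an adjusted p of 0.0698 by edgeR. The 9 receptors had a median log2 fold change of -0.08. In the second control FZD10, with 54 to 70 counts, was about as low as FZD9, with 60 to 74. The SLC30A10 knockout had 5 of the 9 called, 2 higher and 3 lower, beside 41.4% of all tested genes, and of the 2 rises that of FZD9 was 0.42 ± 0.12.

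Wnt ligands gave no call in the second knockout among 11 tested, where 13.7% of all tested genes were called, and had a median of -0.04. That count of 0 held in edgeR and in DESeq2, and 1 of the 11 had an unadjusted edgeR p under 0.05. In the SLC30A10 knockout 6 of the 11 were called by edgeR, 5 higher and 1 lower, beside 41.4% of all tested genes, and among the rises were WNT7B (2.20 ± 0.19) and WNT5A (1.22 ± 0.06). Of 11 co-receptors and surface regulators tested, 4 were called in the second knockout, all of them lower, beside 13.7% of all tested genes called and 7.03% lower. RSPO3, a secreted amplifier of Wnt signalling, had 2, 0, 0 and 0 counts against 9, 7, 2 and 7 in the control, at an adjusted p of 0.00234 by edgeR. It had 18 to 24 counts in the SLC30A10 knockout against 4 to 11 in that control, a description only, since the gene passed the expression filter through that knockout alone. LGR4, the receptor for such amplifiers, fell by 0.34 ± 0.04 in the second knockout, and the glypican gene GPC4 fell by 0.20 ± 0.05.

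Of 18 transducers 3 were called in the second knockout, a share near the 13.7% of all tested genes. TCF7 fell by 0.27 ± 0.08, and TCF7L2 (0.23 ± 0.07) and TCF7L1 (0.17 ± 0.06) rose. Each of the 3 calls was lost under more than 1 alternative, for example without second knockout replicate 2, where the adjusted p-values by edgeR were 0.113, 0.0664 and 0.22. Of 13 target genes 4 were called, beside the same 13.7%. SP5, a direct target of beta-catenin, had 5, 4, 3 and 4 counts against 12, 13, 7 and 12 in the control, a log2 fold change of -1.42 ± 0.37 (adjusted p 0.00984 by edgeR). TCF7 is also on this list, while MYC rose by 0.43 ± 0.07 and TNFRSF19 by 0.37 ± 0.10. AXIN2, a feedback inhibitor and common readout of the pathway, had a log2 fold change of 0.14 ± 0.08, with an adjusted p of 0.253 by edgeR. Among 5 tested antagonists, of which 3 were called beside that 13.7%, DKK3 fell by 0.45 ± 0.09 and SFRP1 fell by 0.25 ± 0.07, while KREMEN1 rose by 0.31 ± 0.05.

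Around PTPRN2, 13 of the 22 other dense-core vesicle genes were tested and 5 were called in the second knockout, beside 13.7% of all tested genes. CADPS, a priming factor of vesicle release, rose by 0.74 ± 0.21 and the syntaxin gene STX1A rose by 0.38 ± 0.12. The peptide precursor gene VGF fell by 0.51 ± 0.16, ICA1 by 0.49 ± 0.16 and RAB27A by 0.21 ± 0.06. These 5 calls were near the threshold, and each was lost without second knockout replicate 2. PTPRN, the closest relative of PTPRN2, was too low to test, with 2 to 11 counts in the second knockout and 2 to 8 in its control. Chromogranins and prohormone convertases on the list (CHGA, CHGB, PCSK1 and PCSK2) did not pass the filter. Among 10 other receptor-type tyrosine phosphatases tested, PTPRK fell by 0.39 ± 0.08 in the second knockout and no other was called, 1 of 10 beside 13.7% of all tested genes.

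Of the 12 factors listed around LBX1, 6 were tested and 3 were called in the second knockout, beside 13.7% of all tested genes. Besides LBX1 and TLX1 this was MET, the receptor that guides LBX1-expressing muscle precursors, with 1880, 1760, 1580 and 1762 counts against 819, 765, 818 and 821 in the control. MET rose by 1.13 ± 0.07 (log2, SE), with an adjusted p of 3.44e-13 by edgeR, and in the SLC30A10 knockout it rose by 0.79 ± 0.07. Over all of these lists and the head-to-head partners, 26 of 92 tested genes other than the 3 themselves were called in the second knockout (28.3%, beside 13.7% of all tested genes), 10 higher and 16 lower, with a median log2 fold change of -0.02. The 26 include LBX1 and FZD10-AS1, listed as partners of chosen genes. Without second knockout replicate 2 the count was 15, while calls over all tested genes went from 2132 of 15569 to 1570 of 15717.

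**Figure D5:**
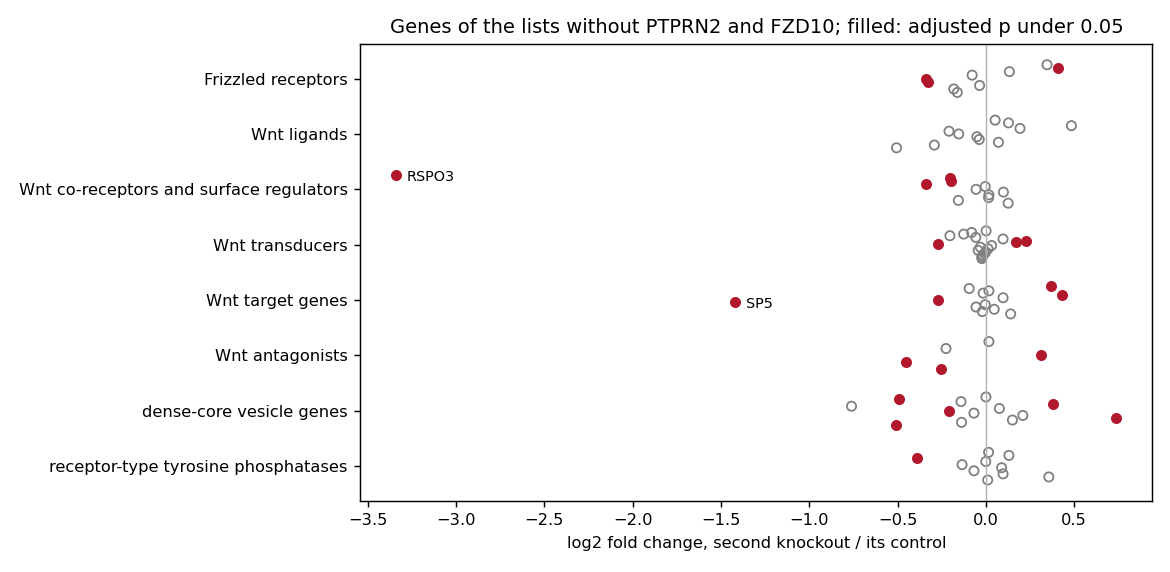
Log2 fold changes in the second knockout against its control (x axis) for tested genes of 8 lists, without PTPRN2 and FZD10, where filled points have an adjusted p under 0.05. The called genes lie on both sides of 0, and RSPO3 and SP5, both with few counts, lie furthest to the left.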

How the data were processed

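Poly-A RNA was sequenced as paired reads of 100 bases on a DNA nanoball platform, per the labels' protocols. The submitters' processing notes name HISAT2, featureCounts and DESeq2 and the build GRCh38, with no role or order. Versions, annotation and use of strand are not given in the sources used here. The authors deposited whole-number counts per gene symbol and a table of normalized signal, in which each column equals the counts times a constant within 5.13e-06, and which was not otherwise used.

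Counts were fitted with edgeR 4.0.16 in R 4.3.3, with a mean for each of 4 groups over all 16 libraries, trimmed mean of M-values scaling and a filter (minimum count 10, minimum total 15) that left 15569 genes. An adjusted p under 0.05 was the threshold, and SEs were derived from the log2 fold change and the F statistic. Simulated counts with 200 changed genes gave back 49 or 50 of 50 at each fold size (2, 4, 0.5 and 0.25) in each of the 3 comparisons. There were 3 to 11 false calls. Smaller changes, and changes in genes with few counts, were not simulated. The fit was repeated with library totals or DESeq2's size factors as scaling, with other filters, with the DESeq2 1.42.0 Wald test, on the 8 libraries compared alone, with pooled controls, with a replicate block and without each library in turn. Counting intervals and floors cover counting error only. Positions are from RefSeq, and all 5 genes with positions matched by symbol.

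The gene deleted in the second knockout is not reported here. The 3 genes and all lists were chosen with earlier results of these data known. Named were the 3 genes, their nearest neighbours, in each list up to 3 rises and 3 falls, the 5 most similar genes, and the genes lost from the second knockout only. AXIN2, FZD9, PTPRN, NCAPG2, RIMBP2, STX2, PAX2, the Wnt ligands and the genes just outside the rule were added after their values were seen.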

Additional observations from a re-analysis of the deposited data

Results flagged for a closer look

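In the second control, PTPRN2 was highest in replicate 2, with 11.5 CPM against 10.4 to 10.5 CPM, where the gap to the nearest library took 0.854 of the range. BMP3 was lowest in replicate 3, with 3.73 CPM, and the gap took 0.867 of the range. Both gaps exceed Dixon's 95% critical value for 4 libraries. Of 33 groups checked, about 1.65 would do so by chance.

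PTPRN2, LBX1-AS1 and FZD10 were higher in every library of the SLC30A10 knockout than in its control, by 0.32, 0.50 and 1.94 on the log2 scale, and lower in every library of the second knockout. No test of that difference is reported, since the loss in the second knockout chose the genes. The difference of both knockout effects was tested for 19 neighbours. It passed for FZD10-AS1 (adjusted p 2.78e-14 by edgeR), LBX1 (8.67e-07), TLX1 (0.00205), RIMBP2 (0.00865) and STX2 (0.0415), 5 of 19 beside 31.3% of all tested genes. For FZD10-AS1 and LBX1 the difference is mostly their loss from the second knockout. RIMBP2 passed the expression filter only through the SLC30A10 knockout, where it was high. TLX1 rose in both knockouts, by 0.75 ± 0.06 and 0.37 ± 0.07, and STX2 passed in neither.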

How the results depend on the processing

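The rises of PTPRN2, LBX1-AS1 and FZD10 in the SLC30A10 knockout and the difference of LBX1-AS1 between the control sets kept their direction and passed under every alternative run. When each library was left out in turn, the log2 fold change in the SLC30A10 knockout was 0.25 to 0.34 for PTPRN2, 0.44 to 0.59 for LBX1-AS1 and 1.86 to 2.00 for FZD10. The bound for LBX1-AS1 in the second knockout was 38.5 with pooled controls. The ratio for PTPRN2 was 105 to 176 when each library was left out, and rests on 5 counts. The count of called neighbours was 10 with pooled controls and 10 within 1 Mb, a window chosen after seeing the data, and 5 to 6 when libraries were left out. The count over the pathway lists was 44 with pooled controls, 15 to 26 when libraries were left out and 5 when a log2 fold change of at least 1 was also required, a limit likewise chosen after seeing the data. These 5 include LBX1 and FZD10-AS1, listed as partners of chosen genes. No share of all tested genes is given for that limit. Over all genes, pooled controls moved the calls in the second knockout from 2132 to 5341, and the cause was not tested. Replicate numbers recur in every group, but same-numbered libraries correlated at -0.10 to 0.12 and share only a number. With the replicate block the log2 fold changes in the SLC30A10 knockout were 0.32, 0.51 and 1.93, and it changed no call of these genes. Of the single neighbours and list genes, 62 results fell short of the threshold and 2 newly passed it under some alternative, while 532 stayed on their side. At this depth, levels under 0.180 CPM could not be told from 0.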
